A study of Arabidopsis thaliana with 24 samples.

Results

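The chloroplast-encoded transcripts are all genes whose identifier starts with ATCG in 2 deposited expression tables of Arabidopsis seedlings. Each table held 83 of them, 86 were present in either table and 80 in both, among 23842 genes in either table. All 86 are protein-coding genes, so ribosomal and transfer RNAs of the chloroplast were not analysed here. The groups were the mutant ino80-5 (ino80) at 27 °C, ino80 at 21 °C, wild-type Columbia (Col) at 27 °C and Col at 21 °C, each sampled after 1 h and after 12 h. The labels give ecotype Col for all samples, and whole seedlings grown for 7 days at 21 °C in short days, after which they stayed at 21 °C or moved to 27 °C. INO80 gives its name to a nuclear complex that remodels chromatin with the energy of ATP, and the series concerns its part in the response to mild warmth. RNA was sequenced in 24 libraries, 3 for each of the 8 groups.

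The chloroplast genome encodes core subunits of the photosystems, the cytochrome b6f complex, ATP synthase, the NDH complex, Rubisco, the plastid ribosome and an RNA polymerase. Most of these genes lie in operons and are transcribed as long precursors that are cut, trimmed and spliced. The plastid-encoded polymerase, whose core is made by the rpo genes, needs sigma factors and associated proteins encoded in the nucleus and transcribes mainly photosynthesis genes, while a phage-type polymerase encoded in the nucleus transcribes the rpoB operon and part of the housekeeping genes. Chloroplast mRNAs carry no stable poly(A) tail, and short A-rich tails mark them for decay.

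Values are TPM as the authors computed them, in which the fragments of a gene are scaled by its length, here for nearly all genes the whole span with introns, and by the total of the library. INO80 itself was lower in ino80 than in Col in every comparison of genotypes, with 10.9 to 11.6 TPM in ino80 against 14.4 to 16.7 TPM in Col at 27 °C and 1 h, and 12.6 to 14.8 TPM against 17 to 20.3 TPM at 21 °C. At 12 h it had 22.8 to 32.1 TPM in ino80 against 37 to 47.9 TPM in Col at 27 °C, and 16.4 to 17.5 TPM against 20 to 22.5 TPM at 21 °C. The 4 leaf markers RBCS1A, RBCS3B, CAB1 and CAB2 together had 63502 to 77483 TPM over the 1 h libraries. CAB2 had 6480 to 6850 TPM in ino80 and 4810 to 5030 TPM in Col at 27 °C. At 21 °C it had 6600 to 6970 TPM in ino80 and 4030 to 5880 TPM in Col. RBCS3B had 8520 to 8700 TPM in ino80 and 6270 to 7310 TPM in Col at 21 °C and overlapped at 27 °C. RBCS1A did likewise, with 25300 to 26300 TPM in ino80 and 22200 to 24800 TPM in Col at 21 °C. CAB1 overlapped between the genotypes at both temperatures. Of the 2 root markers, PYK10 was higher in ino80 than in Col at both times, with 1790 to 2180 TPM against 1440 to 1720 TPM at 1 h and 3420 to 4020 TPM against 1810 to 2540 TPM at 12 h. The other, IRT1, averaged 21.3 TPM in ino80 against 20.1 TPM in Col at 27 °C and 44.2 TPM against 23.9 TPM at 21 °C at 1 h, and at 12 h 16.8 TPM against 14.2 TPM at 27 °C and 41.2 TPM against 52.2 TPM at 21 °C, so it was higher in ino80 by the test at 21 °C and 1 h alone (0.86 ± 0.12, adjusted p = 7.1e-05). The part of organ proportions in the chloroplast values was not tested. Chloroplast transcripts made up 0.0799 to 0.257% of all TPM at 1 h and 0.118 to 0.159% at 12 h. They were covered by 6812 to 21532 fragments per library at 1 h and 5414 to 7189 at 12 h, out of an estimated 17.5 M to 33.1 M and 18.2 M to 20.9 M in all. In bulk seedling RNA, fewer plastids or green cells and less RNA per plastid cannot be told apart. The labels do not state poly(A) selection, so transcript level and the share of chloroplast RNA captured cannot be told apart either. The labels do not say whether the 3 replicates came from separate cultures, so p-values measure the spread between these samples. The 2 times were deposited as separate tables and are set side by side without a test.

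At 1 h the summed level of chloroplast transcripts was highest in warm ino80 and lowest in warm Col. The sums were 2574, 2437 and 2078 TPM in ino80 at 27 °C and 1906, 1448 and 1466 TPM in ino80 at 21 °C. In Col they were 1014, 857 and 799 TPM at 27 °C and 1047, 1561 and 1215 TPM at 21 °C. The groups thus moved in opposite directions with warmth, and at 27 °C every ino80 library lay above every Col library. At 12 h the sums were 1594, 1416 and 1449 TPM in ino80 at 27 °C, 1273, 1302 and 1194 TPM in ino80 at 21 °C, 1410, 1445 and 1323 TPM in Col at 27 °C and 1265, 1185 and 1351 TPM in Col at 21 °C. The 12 h groups lay close together, and ino80 and Col overlapped at both temperatures. Within ino80 every warm library lay above every cool one at 12 h, and within Col the temperatures overlapped. Mitochondrion-encoded transcripts moved in part alongside at 1 h, with summed levels of 115 to 146 TPM in ino80 at 27 °C, 95.4 to 106 TPM in ino80 at 21 °C, 66.6 to 84.8 TPM in Col at 27 °C and 70.9 to 82.7 TPM in Col at 21 °C. At 12 h they had 108 to 133 TPM in ino80 at 27 °C, 77.2 to 89.8 TPM in ino80 at 21 °C, 109 to 145 TPM in Col at 27 °C and 75.6 to 89.9 TPM in Col at 21 °C, so that warm libraries lay above cool ones in both genotypes. Their part in the chloroplast result was not tested.

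**Figure D1:**
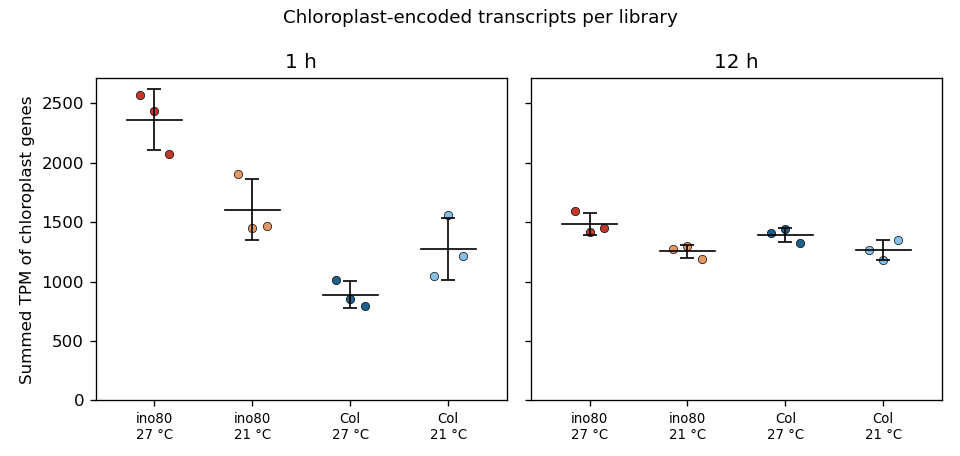
Summed TPM of the chloroplast-encoded genes in each library (vertical axis) for ino80 and Col at 27 and 21 °C, at 1 h (left) and 12 h (right). Points are libraries, bars the mean ± SD of 3. At 1 h the ino80 libraries at 27 °C lie between 2078 and 2574 TPM and the Col libraries at 27 °C between 799 and 1014 TPM, while at 12 h all 12 libraries lie between 1185 and 1594 TPM.

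Genes were tested with limma on log2(TPM + 1) across all genes with at least 1 TPM in at least 3 of the 12 libraries of a time. This left 72 of the 83 chloroplast genes at 1 h and 71 at 12 h, and a gene was called at an adjusted p below 0.05 (two-sided, Benjamini-Hochberg over all 19190 or 19578 tested genes). Changes below are log2 fold changes ± SE with n = 3 per group, and those of low genes are understated by the added 1.

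In warm seedlings at 1 h, nearly the whole chloroplast gene set was higher in ino80 than in Col. Of 72 tested genes 68 rose and 1 fell, against 17.1% higher and 20.4% lower over all tested genes, and the median change was 1.44 against -0.01 over all tested genes. All 7 photosystem I genes, 10 of 10 NDH genes, 6 of 6 ATP synthase genes, 13 of 14 photosystem II genes and 10 of 10 small ribosomal subunit genes rose. At 21 °C the mutant was higher for 38 genes and lower for 2, against 15.4% and 20.5% over all tested genes (35.9% in either direction, and 37.4% at 27 °C), with a median of 0.56 against -0.03. With 1 library left out in turn, 63 of the 69 calls at 27 °C and 28 of the 40 at 21 °C were kept in every such fit.

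Warmth for 1 h moved the 2 genotypes in opposite directions. In ino80, 34 of 72 genes rose and 0 fell, where 15.2% of all tested genes rose and 16.8% fell (32% in either direction), and the median change was 0.59. In Col, 0 rose and 24 fell, where 15.7% of all tested genes rose and 18.5% fell (34.2% in either direction), and the median was -0.36. At an unadjusted limma p below 0.05, 0 genes were lower in warm ino80 and 1 was higher in warm Col. The genotype by temperature interaction, which tests the difference of the 2 responses, was positive for 17 genes and negative for 0, where 1.09% and 0.792% of all tested genes were (1.88% in either direction). At an unadjusted limma p below 0.05 it was positive for 51 and negative for 0. Shares of all tested genes at the unadjusted threshold were not computed, so these unadjusted counts stand without a comparison.

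Single libraries weighed on these counts. The 34 calls in ino80 dropped to 19 without ino80 27 °C replicate 1, and the 24 in Col to 13 without Col 21 °C replicate 2 and to 13 without Col 27 °C replicate 3. In all, 18 of the 34, 10 of the 24 and 11 of the 17 interaction calls held in every fit that left out 1 library. When chloroplast genes were rescaled to each other, which removes any change they share, the calls split into 22 higher and 17 lower for ino80 at 27 °C, 14 and 16 for ino80 at 21 °C, 3 and 7 for warmth in ino80, 13 and 11 for warmth in Col, and 4 and 3 for the interaction.

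**Figure D2:**
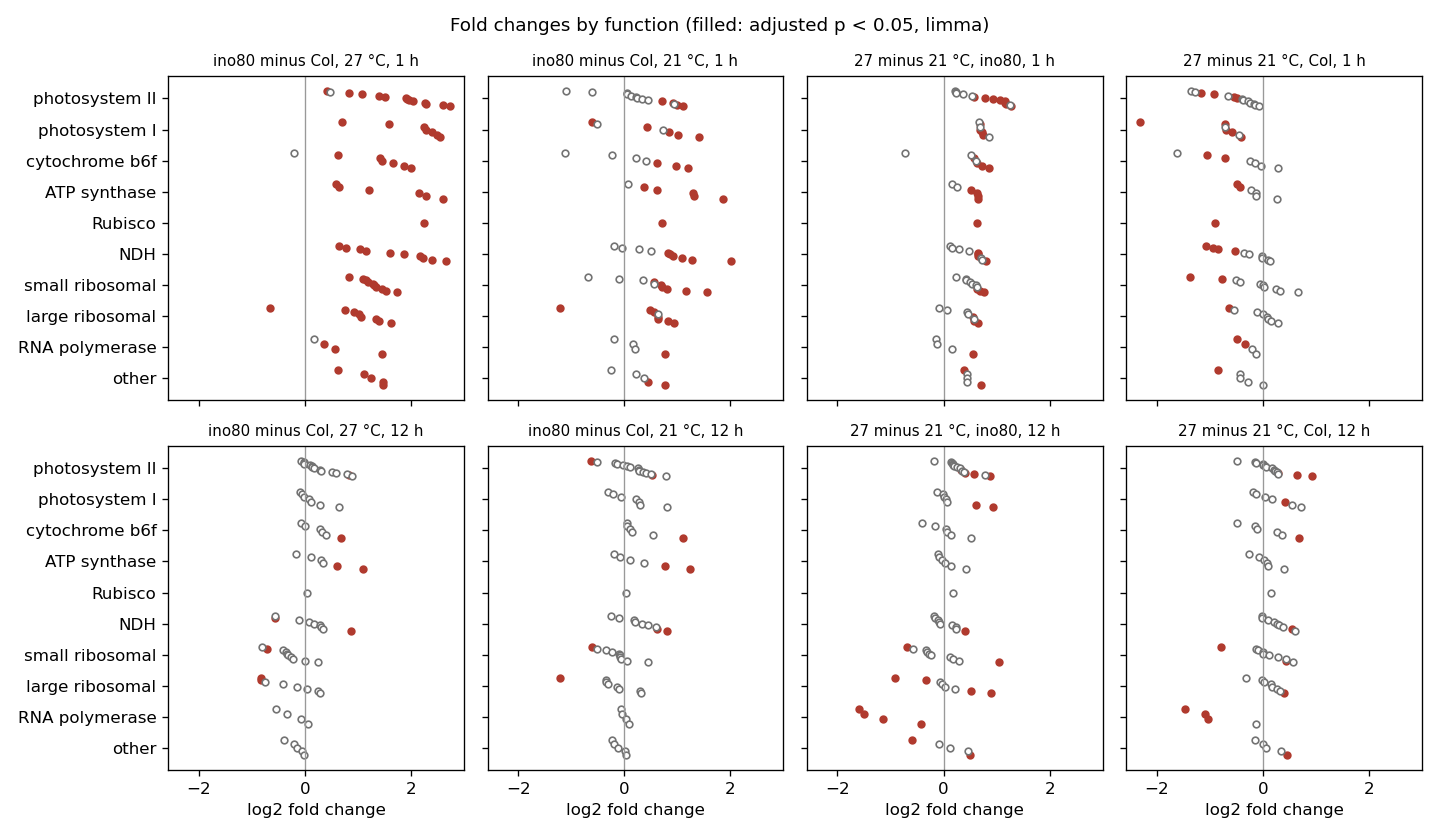
Log2 fold change of each tested chloroplast gene (horizontal axis), grouped by function (rows), at 1 h (upper panels) and 12 h (lower panels). From left to right the panels show ino80 minus Col at 27 °C, ino80 minus Col at 21 °C, 27 minus 21 °C in ino80 and 27 minus 21 °C in Col. Filled points passed an adjusted p below 0.05. At 1 h and 27 °C 68 of 72 points are filled to the right of 0, and at 12 h the polymerase genes lie left of 0 under warmth.

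The photosystem reaction centres are where light drives the transfer of electrons, and 9 of the 17 called interactions at 1 h were of photosystem genes, counting the assembly gene ycf3. Of 7 genes of photosystem I and its assembly, 4 rose with warmth in ino80 and 5 fell in Col, and of 14 genes of photosystem II 8 rose in ino80 and 4 fell in Col. psaA (ATCG00350), which encodes 1 of the paired core subunits of photosystem I, had 42.3, 43.1 and 30 TPM in ino80 at 27 °C and 33.4, 20.2 and 19.1 TPM in ino80 at 21 °C. In Col it had 7.43, 6.11 and 4.71 TPM at 27 °C and 21, 46.3 and 39.7 TPM at 21 °C. The 3 warm Col libraries lay below all 9 others. With warmth psaA changed by 0.67 ± 0.25 in ino80 (adjusted p = 0.053) and fell in Col, by -2.32 ± 0.25 (adjusted p = 2.8e-06). The interaction was 2.99 ± 0.35 (adjusted p = 0.00044), the largest among the 72 genes.

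psbA (ATCG00020) encodes the D1 protein of photosystem II, which is replaced continually in the light. Its level was 132, 148 and 119 TPM in ino80 at 27 °C, 91, 75.4 and 67.5 TPM in ino80 at 21 °C, 38, 32.3 and 33.2 TPM in Col at 27 °C and 48.8, 80.4 and 73.5 TPM in Col at 21 °C. At 21 °C the genotypes overlapped, and at 27 °C they stood far apart. psbA rose with warmth in ino80 (0.77 ± 0.15, adjusted p = 0.00081) and fell in Col (-0.92 ± 0.15, adjusted p = 0.00014), with an interaction of 1.69 ± 0.21 (adjusted p = 0.00055).

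psbD (ATCG00270) encodes the partner of D1, the D2 protein. It had 86.2, 73.6 and 58.9 TPM in ino80 at 27 °C, 44.9, 27.9 and 30.8 TPM in ino80 at 21 °C, 20, 10.4 and 12.8 TPM in Col at 27 °C and 23, 44.2 and 33.8 TPM in Col at 21 °C. Within ino80 all warm libraries lay above all cool ones, and within Col all warm libraries lay below. Its interaction was 2.24 ± 0.33 (adjusted p = 0.0022), from 1.07 ± 0.24 with warmth in ino80 and -1.17 ± 0.24 in Col. rbcL (ATCG00490), the large subunit of the carbon-fixing enzyme Rubisco, had 139, 138 and 117 TPM in ino80 at 27 °C, 91.9, 88.3 and 74.1 TPM in ino80 at 21 °C, 32.2, 25.2 and 24.2 TPM in Col at 27 °C and 39.2, 60.4 and 56.3 TPM in Col at 21 °C. Unlike psbA, rbcL was higher in ino80 at 21 °C too, by 0.71 ± 0.14 (adjusted p = 0.00083), and by 2.24 ± 0.14 at 27 °C (adjusted p = 1.2e-08). Its interaction was 1.52 ± 0.20 (adjusted p = 0.00071).

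**Figure D3:**
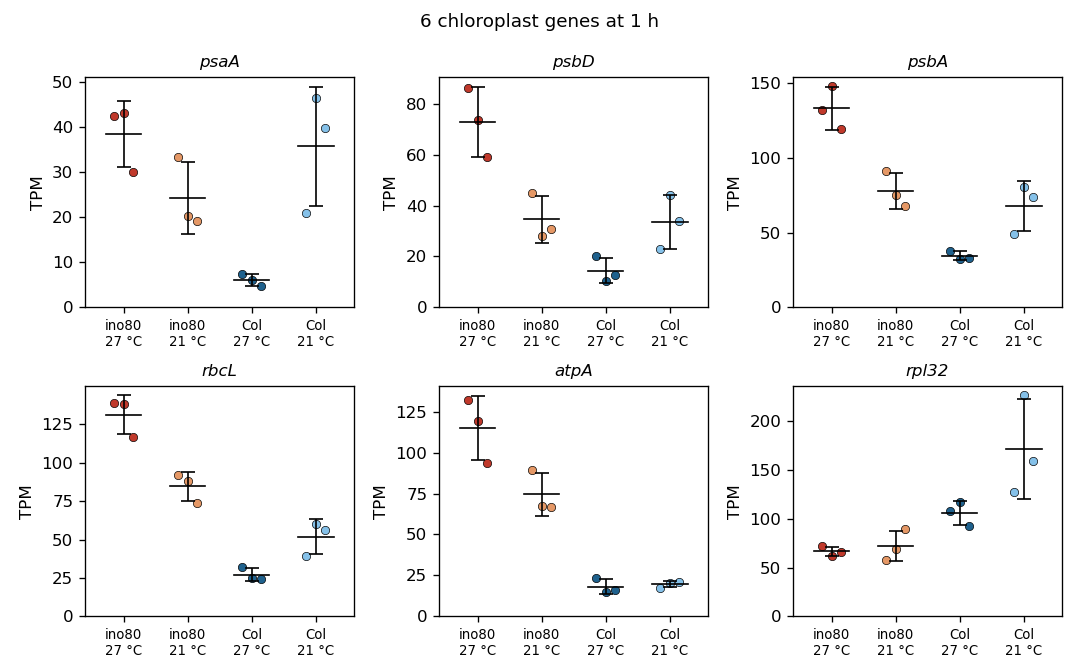
TPM (vertical axes, each from 0) of psaA, psbD, psbA, rbcL, atpA and rpl32 at 1 h in ino80 and Col at 27 and 21 °C. Points are libraries, bars the mean ± SD of 3. The warm Col libraries of psaA lie between 4.71 and 7.43 TPM below all others, atpA is high in all 6 ino80 libraries, and rpl32 is lower in ino80 than in Col.

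The smallest adjusted p of the interaction among chloroplast genes belonged to petN (ATCG00210), which encodes a very short subunit of the cytochrome b6f complex, the link between the photosystems. Its whole coding sequence of 90 bases is shown because so short a gene rested on few fragments, with the first and last codons in capitals (RefSeq, TAIR10.1, Pltd:28089-28178, plus strand).
petN: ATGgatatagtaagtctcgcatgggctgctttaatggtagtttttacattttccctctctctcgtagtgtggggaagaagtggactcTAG
petN had 33.5, 47 and 42.5 TPM in ino80 at 27 °C, 22.4, 25.4 and 25.2 TPM in ino80 at 21 °C, 11.8, 12.7 and 12.1 TPM in Col at 27 °C and 18.5, 21.7 and 21.7 TPM in Col at 21 °C. None of the 4 groups overlapped. It rose with warmth in ino80 (0.72 ± 0.10, adjusted p = 5e-05) and fell in Col (-0.71 ± 0.10, adjusted p = 5.1e-05), and the interaction was 1.43 ± 0.14 (adjusted p = 0.00015).

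Transcripts for larger subunits of the complex were higher in ino80 at both temperatures. petB (ATCG00720), which encodes its cytochrome b6, had 29.4, 26.7 and 21.5 TPM in ino80 and 7.56, 5.44 and 4.46 TPM in Col at 27 °C, and 19.3, 14.8 and 15 TPM in ino80 and 6.48, 6.83 and 6.13 TPM in Col at 21 °C. The genotypes stood apart at each temperature, by 1.99 ± 0.15 (adjusted p = 9.1e-08) and 1.20 ± 0.15 (adjusted p = 1.4e-05). petD, subunit IV of the complex, rose with warmth in ino80 by 0.85 ± 0.16 (adjusted p = 0.00053) and changed in Col by -0.03 ± 0.16, and its interaction of 0.88 ± 0.22 missed the threshold (adjusted p = 0.054).

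Transcripts of the ATP synthase, which makes ATP from the proton gradient, were higher in ino80 at both temperatures. Of the 6 genes of the enzyme 6 rose at 27 °C and 5 at 21 °C. atpA (ATCG00120), the alpha subunit of its catalytic head, had 132, 119 and 93.4 TPM in ino80 and 23.6, 14.9 and 16.1 TPM in Col at 27 °C. At 21 °C it had 89.3, 67.3 and 66.6 TPM in ino80 and 17.6, 20.6 and 21 TPM in Col. atpA was higher in ino80 by 2.60 ± 0.16 at 27 °C (adjusted p = 8e-09) and by 1.85 ± 0.16 at 21 °C (adjusted p = 2.7e-07). In Col it changed with warmth by -0.14 ± 0.16, short of the threshold, and in ino80 it rose by 0.62 ± 0.16 (adjusted p = 0.0064). atpB (ATCG00480), the beta subunit from another operon, differed less, by 0.65 ± 0.07 at 27 °C (adjusted p = 6.1e-06), with 0.37 ± 0.07 at 21 °C (adjusted p = 0.00097). The difference between atpA and atpB was not tested.

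The NDH complex carries electrons around photosystem I, and its chloroplast genes were among the least abundant. All 10 tested ndh genes rose in ino80 at 27 °C, with a median of 1.73, and 6 of 10 at 21 °C. ndhD (ATCG01050), a membrane subunit, had 23.7, 24 and 20.5 TPM in ino80 and 5.03, 2.8 and 3.03 TPM in Col at 27 °C, and 19.6, 16.8 and 12.5 TPM in ino80 and 2.54, 5.58 and 2.26 TPM in Col at 21 °C. The 6 ino80 libraries lay above the 6 Col libraries, and ndhD was higher by 2.39 ± 0.23 at 27 °C (adjusted p = 1.2e-06) and by 2.01 ± 0.23 at 21 °C (adjusted p = 7.2e-06). ndhF (ATCG01010), another membrane subunit that lies outside the large ndh operon, had 2.43, 2.3 and 1.75 TPM in ino80 at 27 °C, 2.91, 1.16 and 1.64 TPM in ino80 at 21 °C, 0.811, 0.482 and 0.349 TPM in Col at 27 °C and 1.22, 3.96 and 2.02 TPM in Col at 21 °C. It fell with warmth in Col (-1.07 ± 0.25, adjusted p = 0.004), changed by 0.16 ± 0.25 in ino80, and had an interaction of 1.23 ± 0.36 that did not pass.

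Transcripts for the small subunit of the plastid ribosome, which binds the mRNA, were higher in ino80 at 27 °C as well, and most of them at 21 °C. At 21 °C rps15 (-0.68 ± 0.31, adjusted p = 0.095) and rps18 (-0.10 ± 0.19, adjusted p = 0.7) had lower values in ino80 and were not called. All 10 tested genes of the small subunit rose in ino80 at 27 °C, with a median of 1.30, and 6 of 10 at 21 °C, with a median of 0.63. With warmth rps15 changed by 0.63 ± 0.31 in ino80 (adjusted p = 0.13) and fell in Col by -1.37 ± 0.31 (adjusted p = 0.0025), with an interaction of 2.0 ± 0.43 (adjusted p = 0.027).

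The core polymerase genes moved less at 1 h. At 27 °C 3 of the 4 core polymerase genes rose in ino80, with a median of 0.46, and at 21 °C 1 of 4 did. rpoA (ATCG00740), the alpha subunit, had 23.9, 20.1 and 20.6 TPM in ino80 and 9.72, 6.13 and 6.23 TPM in Col at 27 °C, a rise of 1.45 ± 0.17 (adjusted p = 7e-06). rpoC1 (ATCG00180), a beta-prime subunit, had 6.77, 6.49 and 5.95 TPM in ino80 and 6.28, 5.64 and 4.77 TPM in Col, and its difference of 0.18 ± 0.14 did not pass. clpP (ATCG00670), the proteolytic subunit of the Clp protease, rose by 1.11 ± 0.12 (adjusted p = 4.7e-06), and accD (ATCG00500), a subunit of the acetyl-CoA carboxylase of fatty acid synthesis, by 1.48 ± 0.18 (adjusted p = 1.4e-05). The tRNA-intron maturase matK rose by 1.48 ± 0.25 (adjusted p = 0.00029) and cemA, an envelope protein gene, by 1.25 ± 0.20 (adjusted p = 0.00013). ycf1, an envelope translocon gene, changed by 0.62 ± 0.19 (adjusted p = 0.019), and the call was lost without 3 of the 6 libraries, which were Col 27 °C replicate 2 and ino80 27 °C replicates 1 and 2 (adjusted p up to 0.074).

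One ribosomal gene went the other way. rpl32 (ATCG01020), which encodes a protein of the large ribosomal subunit, was the 1 chloroplast gene lower in ino80 at 27 °C, and at 21 °C it and psaJ were the 2 lower genes. The call of psaJ at 21 °C (-0.61 ± 0.19, adjusted p = 0.019) was lost without 3 of 6 libraries, which were Col 21 °C replicates 2 and 3 and ino80 21 °C replicate 2 (adjusted p up to 0.094). The coding sequence of rpl32 is shown whole, since at 159 bases it is short (RefSeq, TAIR10.1, Pltd:113449-113607, plus strand, first and last codons in capitals).
rpl32: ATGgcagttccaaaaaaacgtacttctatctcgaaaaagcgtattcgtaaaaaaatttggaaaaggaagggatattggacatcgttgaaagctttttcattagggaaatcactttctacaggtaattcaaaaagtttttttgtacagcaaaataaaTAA
At 1 h rpl32 had 71.6, 61.9 and 66.1 TPM in ino80 at 27 °C and 108, 117 and 92.3 TPM in Col at 27 °C. At 21 °C it had 58.2, 68.6 and 89 TPM in ino80 and 127, 227 and 159 TPM in Col. The genotypes did not overlap at either temperature, and ino80 minus Col was -0.66 ± 0.17 at 27 °C (adjusted p = 0.0064), with -1.22 ± 0.17 at 21 °C (adjusted p = 4.6e-05). It fell with warmth in Col (-0.65 ± 0.17, adjusted p = 0.0072), and changed by -0.09 ± 0.17 in ino80, and its interaction of 0.56 ± 0.24 did not pass. The other 7 tested genes of the large subunit all rose in ino80 at 27 °C. Large subunit genes together took 11.8% ± 0.0890 of chloroplast TPM in ino80 and 22.1% ± 0.665 in Col at 27 °C (SD, n = 3 each). At 21 °C they took 13.8% ± 1.08 in ino80 and 20.7% ± 0.786 in Col. ATP synthase genes took 18.8% ± 0.247 in ino80 and 15.9% ± 0.771 in Col at 27 °C, and at 21 °C 20.1% ± 0.0910 in ino80 and 12.7% ± 2.08 in Col. Without rpl32 the large subunit genes took 8.99% ± 0.308 of the same total in ino80 and 10.2% ± 0.954 in Col at 27 °C. At 21 °C these 9 genes took 9.16% ± 0.433 in ino80 and 7.51% ± 1.47 in Col. The gap between the genotypes in the large subunit share thus lay mostly in rpl32 at 27 °C, and without it the order was the other way at 21 °C. These shares were not tested, and leaving out rpl32 was chosen after the values were seen.

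Within 4 operons the difference of ino80 from Col at 21 °C and 1 h was larger at the last gene than at the first. The psaA operon reads psaA, psaB, rps14, and the first genes are divided by 25 bases. The junction is printed with the stop codon of psaA and the start codon of psaB in capitals (RefSeq, TAIR10.1, Pltd:39562-39622, minus strand), since both genes share the same precursor RNA.
psaA-psaB: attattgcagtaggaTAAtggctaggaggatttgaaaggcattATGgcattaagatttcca
ino80 minus Col at 21 °C was -0.51 ± 0.25 for psaA, 0.84 ± 0.18 for psaB and 1.16 ± 0.24 for rps14. With warmth all 3 changed alike in ino80, by 0.67 to 0.69, and in Col the change was -2.32 ± 0.25, -0.71 ± 0.18 and 0.32 ± 0.24 in the same order. The ratio of rps14 to psaA, the last to the first gene in TPM, was 0.774 to 1.42 in the 6 ino80 libraries at 1 h, 1.86 to 2.9 in Col at 27 °C and 0.186 to 0.621 in Col at 21 °C.

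In the operon psbD, psbC, psbZ of photosystem II, psbD and psbC overlap by 53 bases, so that fragments from there belong to both. The overlap has the annotated start codon of psbC and the stop codon of psbD in capitals (RefSeq, TAIR10.1, Pltd:33720-33772, plus strand).
psbD-psbC: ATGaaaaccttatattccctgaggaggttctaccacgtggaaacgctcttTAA
The difference of ino80 from Col at 21 °C was 0.05 ± 0.24 for psbD, 0.71 ± 0.18 for psbC and 1.10 ± 0.32 for psbZ. The call of psbZ was lost without ino80 21 °C replicate 1 (adjusted p = 0.063).

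In the ATP synthase operon, which starts with rps2, the same comparison gave 0.35 ± 0.24 for rps2, 0.07 ± 0.15 for atpI, 1.32 ± 0.13 for atpH, 1.29 ± 0.18 for atpF and 1.85 ± 0.16 for atpA. The ratio of atpA to rps2 was 10.1 to 16.7 in ino80 at 21 °C and 3.88 to 5.1 in Col at 21 °C. In the operon of NDH genes and psaC, the change was -0.04 ± 0.27 for ndhH, the first gene, and 2.01 ± 0.23 for ndhD, the last (adjusted p = 7.2e-06), with ndhA, ndhI, ndhG, ndhE and psaC between 0.86 and 1.41. The ratio of ndhD to ndhH was 3.42 to 5.42 in the 6 ino80 libraries at 1 h, 2.07 to 6.99 in Col at 27 °C and 0.855 to 1.15 in Col at 21 °C. At 12 h it was 2.2 to 6.02 over all 12 libraries.

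Across all 12 operons with at least 3 tested genes, the last gene had a higher value than the first in 9 operons for ino80 minus Col at 21 °C, with a median gap of 0.58 log2 units and a range of -0.80 to 2.05. For ino80 minus Col at 27 °C it was higher in 8 of 12, with a median gap of 0.27. For warmth in ino80 it was higher in 7 of 12, with a median gap of 0.07, and for warmth in Col in 9 of 12, with a median gap of 0.26. Warmth in Col and ino80 minus Col at 21 °C share the Col libraries at 21 °C. The ribosomal operon that ends in rpoA ran the other way at 21 °C, from 1.56 ± 0.32 at rps19, its first tested gene, to 0.76 ± 0.17 at rpoA. The genes before rps19 are rpl23 and rpl2, whose rows in this operon were too low to be tested. The row ATCG01310 of the other rpl2 copy had 0.83. At 12 h the last gene was higher in 8 of 12 for ino80 minus Col at 21 °C, with a median gap of 0.17. In these counts rps12 stood first in the operon clpP, rps12, rpl20, by the position of its repeat exons, although clpP comes first. From clpP to rpl20 the values were 1.11 and 1.40 for ino80 minus Col at 27 °C. For warmth in ino80 they were 0.38 and 0.46. The counted first gene, rps12, had 1.74 and 0.61. With clpP first, rpl20 would be the higher end in both comparisons, so that 8 and 7 of 12 are too low. The medians rest on the same order. The counts were made after the values were seen and carry no test. RNA integrity was not given in the labels, and its part was not tested.

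**Figure D4:**
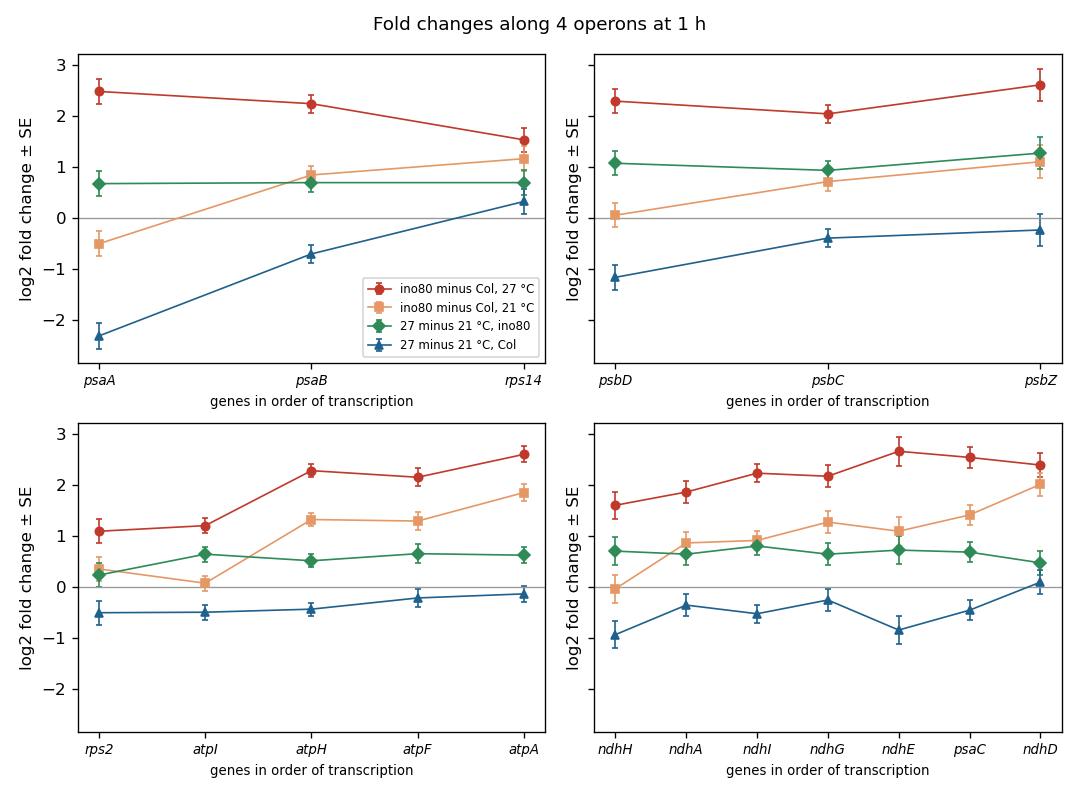
Log2 fold change ± SE at 1 h (vertical axes) of the genes of 4 operons, in order of transcription from left to right. Lines show ino80 minus Col at 27 °C, ino80 minus Col at 21 °C, 27 minus 21 °C in ino80 and 27 minus 21 °C in Col. The 2 comparisons with Col at 21 °C are higher at the last gene than at the first, with -2.32 at psaA and 0.32 at rps14 for warmth in Col, while for warmth in ino80 the values at psaA and rps14 are 0.67 and 0.69.

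One library stood apart for 2 of the smallest genes. psbM and petL encode short membrane subunits of photosystem II and of the cytochrome b6f complex. Their coding sequences are printed to show their length, 105 and 96 bases, with the first and last codons in capitals (RefSeq, TAIR10.1, Pltd:28707-28811, minus strand, and Pltd:65712-65807, plus strand).
psbM: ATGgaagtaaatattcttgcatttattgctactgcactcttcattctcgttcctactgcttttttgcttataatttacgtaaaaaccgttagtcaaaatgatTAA
petL: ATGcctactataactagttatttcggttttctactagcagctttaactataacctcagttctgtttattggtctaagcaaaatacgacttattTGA
At 1 h psbM had 13, 10.5 and 16.2 TPM in ino80 at 27 °C, 10.7, 10.2 and 12.6 TPM in ino80 at 21 °C, 10.8, 10.3 and 6.69 TPM in Col at 27 °C, and 17.6, 99.4 and 8.18 TPM in Col at 21 °C. petL had 2.75, 34 and 0 TPM in Col at 21 °C and 0 to 2.95 TPM in the other 9 libraries. The high value of both genes was that of Col 21 °C replicate 2, the library with the lowest depth of the 1 h table (17.5 M fragments). At 12 h psbM had 42.1 to 123 TPM and petL 10.6 to 32.3 TPM over all 12 libraries. This library thus lay within the 12 h range for psbM and slightly above it for petL. Without it, 13 genes fell with warmth in Col, and for ino80 at 21 °C 34 genes were higher and 1 lower.

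At 12 h the chloroplast set as a whole moved little with warmth, while the polymerase operon fell in both genotypes. In ino80 11 of 71 genes rose and 8 fell, where 38.1% and 19.3% of all tested genes did so (57.4% in either direction), and 9 calls were left without ino80 21 °C replicate 1. In Col 9 rose and 4 fell, against 36.8% and 21.8% (58.6% in either direction). The medians were 0.06 in ino80 and 0.10 in Col, beside 0.15 and 0.13 over all tested genes. Scaling by median of ratios shifted the median of all tested genes by -0.14 in ino80 and -0.12 in Col, and gave 6 rising and 10 falling chloroplast genes in ino80 and 4 and 6 in Col. With quantile normalization the split was 6 and 11 in ino80 and 5 and 6 in Col. Rescaled to each other, chloroplast genes split into 9 and 9 in ino80 and 4 and 6 in Col. All 4 nuclear leaf markers fell with warmth at 12 h in both genotypes, and their summed level was 34127 to 38812 TPM in ino80 at 27 °C, 58909 to 65425 TPM in ino80 at 21 °C, 42975 to 47995 TPM in Col at 27 °C and 61359 to 69127 TPM in Col at 21 °C. Their part in the chloroplast values at 12 h was not tested.

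The 3 genes of the operon rpoB-rpoC1-rpoC2, which encode the beta subunits of the plastid polymerase, fell with warmth in both genotypes. rpoB (ATCG00190) had 8.09, 5.45 and 6.25 TPM in ino80 at 27 °C and 22.7, 18.2 and 20.2 TPM in ino80 at 21 °C. In Col it had 6.55, 5.69 and 8.96 TPM at 27 °C and 21.6, 19.1 and 22.3 TPM at 21 °C. Warm and cool libraries did not overlap, and the change was -1.50 ± 0.15 in ino80 (adjusted p = 9.3e-07) and -1.47 ± 0.15 in Col (adjusted p = 1.1e-06). rpoC1 changed by -1.60 ± 0.23 in ino80 and -1.03 ± 0.23 in Col, and rpoC2 by -1.14 ± 0.22 and -1.09 ± 0.22, with all 4 adjusted p at or below 0.0014. All 3 genes kept their calls in every fit that left out 1 library. Outside this operon rps2 also fell, by -0.69 in ino80 (adjusted p = 0.034) and -0.79 in Col (adjusted p = 0.018). It lost these calls without 4 of 6 libraries in ino80 and 2 of 6 in Col. At 1 h rpoB had 13.9 to 16.1 TPM in ino80 at 27 °C, 15.3 to 18.5 TPM in ino80 at 21 °C, 9.97 to 13.1 TPM in Col at 27 °C and 12.6 to 18.4 TPM in Col at 21 °C, a much smaller spread between temperatures. rpoA, which lies in the ribosomal operon, changed by -0.42 ± 0.16 in ino80 (adjusted p = 0.035) and lost this call without 4 of 6 libraries (ino80 27 °C replicates 2 and 3, ino80 21 °C replicates 1 and 3, adjusted p up to 0.12). In Col it changed by -0.14 ± 0.16.

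**Figure D5:**
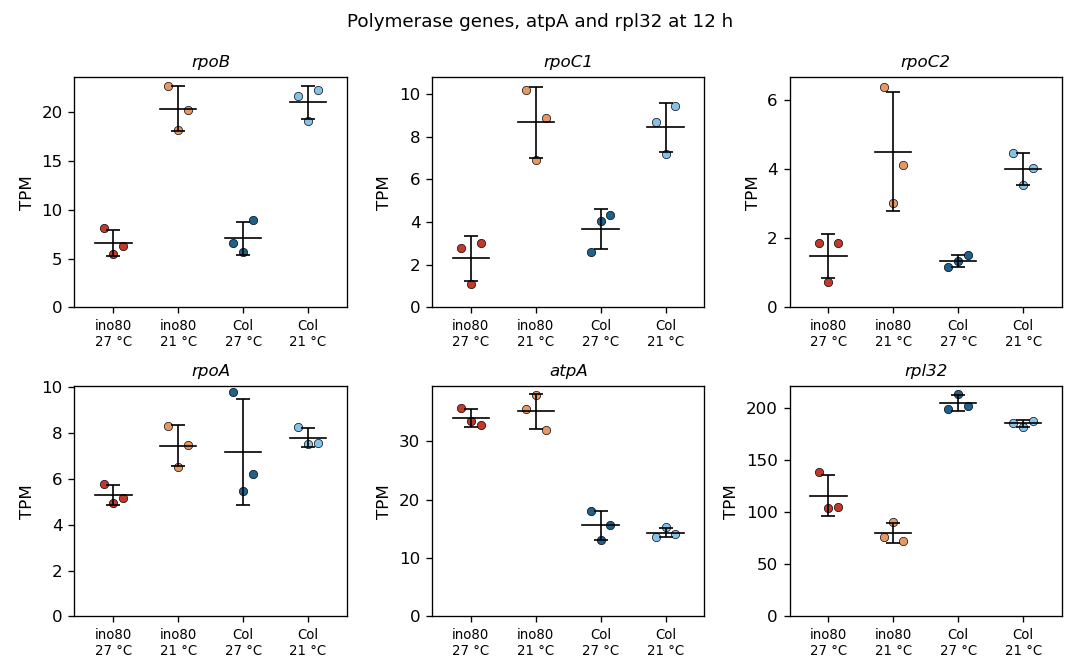
TPM (vertical axes, each from 0) of the 4 polymerase genes, atpA and rpl32 at 12 h in ino80 and Col at 27 and 21 °C. Points are libraries, bars the mean ± SD of 3. rpoB lies between 5.45 and 8.96 TPM in the 6 warm libraries and between 18.2 and 22.7 TPM in the 6 cool ones, and atpA and rpl32 separate the genotypes.

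Photosynthesis genes, with NDH genes counted, that rose with warmth at 12 h were psbA, psbB, psbE, psbM, psaI, psaJ and ndhA in ino80. In Col they were psbC, psbH, psbJ, psaJ, petG and ndhK. Of these, psbM and psaJ in ino80 and psbJ in Col kept the call in every fit that left out 1 library. psbA rose in ino80 by 0.41 ± 0.13 (adjusted p = 0.013), a call lost without ino80 27 °C replicate 2 (adjusted p = 0.058). The protease gene clpP rose with warmth by 0.49 ± 0.11 in ino80 (adjusted p = 0.0011) and 0.46 ± 0.11 in Col (adjusted p = 0.0016). psaJ (ATCG00630), a small photosystem I subunit, had 139, 171 and 187 TPM in ino80 at 27 °C, 121, 111 and 92.8 TPM in ino80 at 21 °C, 194, 166 and 145 TPM in Col at 27 °C and 116, 138 and 124 TPM in Col at 21 °C. It rose by 0.61 ± 0.12 in ino80 (adjusted p = 0.0007) and by 0.41 ± 0.12 in Col (adjusted p = 0.01), and the call in Col was lost without Col 27 °C replicate 1 (adjusted p = 0.058). psbM rose in ino80 by 0.87 ± 0.21 (adjusted p = 0.0025) and psbJ, a small photosystem II subunit, in Col by 0.64 ± 0.17 (adjusted p = 0.0055). psaA, at 6.84 to 7.46 TPM in ino80 at 27 °C, 6.53 to 7.24 TPM in ino80 at 21 °C, 5.31 to 9.65 TPM in Col at 27 °C and 4.81 to 6.96 TPM in Col at 21 °C, changed by 0.05 ± 0.18 in ino80 and 0.16 ± 0.18 in Col.

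Between the genotypes at 12 h, 5 genes were higher and 4 lower in ino80 at 27 °C, where 18.7% and 11.5% of all tested genes were (30.2% in either direction), and 6 were higher and 3 lower at 21 °C, where 16.7% and 12.1% were (28.8% in either direction). Quantile normalization gave 4 higher and 7 lower at 27 °C and 4 and 4 at 21 °C, and median-of-ratios scaling gave 4 and 5 at 27 °C. atpA had 35.8, 33.5 and 32.9 TPM in ino80 and 18, 13.1 and 15.7 TPM in Col at 27 °C, and 35.6, 38 and 32 TPM in ino80 and 13.7, 15.3 and 14.1 TPM in Col at 21 °C. The genotypes did not overlap, and atpA was higher in ino80 by 1.09 ± 0.10 at 27 °C (adjusted p = 2.7e-06), with 1.23 ± 0.10 at 21 °C (adjusted p = 9.6e-07). Its neighbour atpF was higher by 0.60 ± 0.12 (adjusted p = 0.0017) and 0.76 ± 0.12 (adjusted p = 0.00029). atpI from the start of that operon differed by -0.16 ± 0.18 and -0.19 ± 0.18 and was not called.

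rpl32 was again lower in ino80 at 12 h, with 139, 104 and 105 TPM against 199, 214 and 202 TPM in Col at 27 °C, and 76.6, 90.5 and 72.9 TPM against 186, 182 and 188 TPM in Col at 21 °C. ino80 minus Col was -0.83 ± 0.10 at 27 °C (adjusted p = 2.5e-05), with -1.21 ± 0.10 at 21 °C (adjusted p = 9.5e-07), and with warmth rpl32 rose in ino80 by 0.52 ± 0.10 (adjusted p = 0.00038). psbI, a small photosystem II subunit, was higher in ino80 at 27 °C by 0.83 ± 0.14 (adjusted p = 0.00056) with 239, 188 and 172 TPM against 104, 133 and 97.7 TPM. The ribosomal protein genes rpl22 and rps3, which overlap each other, were lower in ino80 at 27 °C, with differences of -0.82 ± 0.12 (adjusted p = 0.00019) and -0.71 ± 0.18 (adjusted p = 0.0088). rps14 was lower at 21 °C (-0.60 ± 0.14, adjusted p = 0.0047), and petN was higher at 21 °C by 1.10 ± 0.23 (adjusted p = 0.0026). The interaction was called by limma for 0 of 71 genes at 12 h, where 0.751% of all tested genes were called (0.327% positive and 0.424% negative). 5 chloroplast genes had an unadjusted limma p below 0.05, 1 positive and 4 negative, and every alternative fit run also called 0. The share of all tested genes at that unadjusted threshold was not computed.

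Genes of the inverted repeat were nearly undetected. rps7, ndhB, ycf2, rpl23 and the repeat exons of rps12 had at most 0.4 TPM in any library where they were listed. The exception was rpl2, whose copies are identical over 1507 bases with 0 mismatches, yet whose row ATCG01310 had 5.08 to 12.8 TPM and whose row ATCG00830 had at most 0.173 TPM. How reads with 2 equal places were counted is not stated, so levels of repeat genes are uncertain. The row ATCG01310 of rpl2 was higher in ino80 at 1 h by 0.75 ± 0.10 at 27 °C (adjusted p = 2.8e-05), with 0.83 ± 0.10 at 21 °C (adjusted p = 1.2e-05). psbF, a subunit of cytochrome b559, had at most 1.27 TPM at 1 h although its operon neighbours psbE, psbL and psbJ reached 29.7, 26.6 and 38 TPM. psbN lies on the strand opposite to its neighbours psbT and psbH, and since use of the strand is not stated its rise of 2.74 ± 0.39 in ino80 at 27 °C and 1 h (adjusted p = 5.4e-05) cannot be told apart from theirs.

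Nuclear genes that serve plastid transcription moved in their own ways. The polymerase-associated proteins PAP1 to PAP12, which form the shell of the plastid-encoded polymerase, fell with warmth at 12 h for 11 of 12 in ino80 (median -0.76) and 12 of 12 in Col (median -0.83), where 19.3% of all tested genes fell in ino80 and 21.8% in Col. PTAC12 had 36.5, 37.9 and 37.4 TPM in ino80 at 27 °C and 115, 83.7 and 93.4 TPM in ino80 at 21 °C, and 40.1, 41.5 and 43.5 TPM in Col at 27 °C and 112, 115 and 128 TPM in Col at 21 °C. It changed by -1.35 ± 0.09 in ino80 (adjusted p = 1.9e-08) and -1.48 ± 0.09 in Col (adjusted p = 7.4e-09). At 1 h, when chloroplast transcripts were higher in ino80, 7 of the 12 genes were lower and 1 higher in ino80 at 27 °C and 9 lower at 21 °C, where 20.4% and 20.5% of all tested genes were lower.

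Of 8 sigma factors and phage-type polymerases, 5 fell with warmth at 1 h in each genotype, where 16.8% of all tested genes fell in ino80 and 18.5% in Col. SIGE (AT5G24120), the sigma factor known for the light-responsive promoter of psbD, had 118, 123 and 124 TPM in ino80 at 27 °C and 333, 341 and 325 TPM in ino80 at 21 °C, and 134, 132 and 136 TPM in Col at 27 °C and 318, 319 and 355 TPM in Col at 21 °C. It changed by -1.45 ± 0.05 in ino80 (adjusted p = 4.2e-12) and -1.30 ± 0.05 in Col (adjusted p = 1.9e-11), with an interaction of -0.15, not called. psbD rose in ino80 and fell in Col, and the part of SIGE in the level of psbD was not tested. SIG2 (AT1G08540) was lower in ino80 at 1 h, with differences of -1.03 ± 0.05 at 27 °C (adjusted p = 4.6e-10), with -0.96 ± 0.05 at 21 °C (adjusted p = 8.7e-10), and at 12 h of -1.20 ± 0.07 and -1.29 ± 0.07. Its levels at 1 h were 30.6 to 31.5 TPM in ino80 and 62.7 to 65.6 TPM in Col at 27 °C. The phage-type polymerase gene SCA3 had 14.9 to 17.3 TPM in warm Col and 10.8 to 14.1 TPM in cool Col at 1 h, and overlapped in ino80. At 12 h it had 23.1 to 28.8 TPM in warm ino80 and 31.3 to 39.6 TPM in cool ino80. In Col it then had 19.6 to 23.8 TPM in the warm and 35.5 to 44.1 TPM in the cool. Its part in the levels of the rpoB operon was not tested.

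Among 9 genes of plastid RNA processing and stability, 7 in ino80 and 8 in Col fell with warmth at 12 h, with medians of -0.73 and -0.65, beside the 19.3% and 21.8% of all tested genes that fell. The gene of plastid ribonuclease J (AT5G63420), which trims transcript ends, had 1.16, 1.38 and 1.48 TPM in ino80 and 5.82, 6.31 and 5.82 TPM in Col at 27 °C and 1 h. At 21 °C it had 1.33, 1.39 and 1.5 TPM in ino80 and 6.59, 6.47 and 6.25 TPM in Col. ino80 minus Col was -1.58 ± 0.10 at 27 °C (adjusted p = 1.2e-08), with -1.63 ± 0.10 at 21 °C (adjusted p = 7.3e-09). The gene was lower in ino80 at 12 h too, by limma differences of -1.35 ± 0.13 in the warm (adjusted p = 3.3e-06) and -0.67 ± 0.13 in the cool (adjusted p = 0.0014). Its part in the levels of chloroplast transcripts was not tested.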

How the data were processed

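The deposited tables, 1 for each time, hold TPM values that the authors computed per gene and library. The labels name the Takara Minibest kit for RNA and the NEBNext Ultra RNA kit for libraries, and state neither poly(A) selection nor strand use. Tools named in the submitters' processing notes are fastp 0.20.1, HISAT2 2.1.10, HTSeq 0.11.2 and DESeq2 1.26.0, with the build TAIR10 and no role or order. Where TPM steps gave whole fragments (96.4% of genes at 1 h and 97% at 12 h, within 0.02 of a whole number), the gene length behind the TPM was recovered. It lay within 1 base of the RefSeq span for 22147 of 22407 nuclear genes at 1 h and 22187 of 22443 at 12 h. Where that length held introns, TPM is understated. Depth was estimated from the same steps and served for description.

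Neither the tables nor RefSeq pair ATCG identifiers with gene names. Names were taken from general knowledge of the locus identifiers, and for 78 of 86 the recovered length equalled the RefSeq span of the gene of that name. Sequences and coordinates come from RefSeq's TAIR10.1 chloroplast sequence (Pltd).

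Each table was fitted alone with limma 3.58.1 (R 4.3.3) on log2(TPM + 1), 4 group means, empirical Bayes with trend, and 5 two-sided contrasts, with Benjamini-Hochberg adjustment over all tested genes. The fit was tested on simulated data. Alternatives were pseudocounts of 0.1 and 5, no filter, a mean TPM of at least 5, 4 other scalings, the replicate number as a block, robust variance, 2 groups alone, and leaving out each library. Named genes are a fixed set of 20, members that differ from their list's called majority, and the nuclear lists. Each contrast added up to 3 rising and 3 falling called genes, with a mean TPM of at least 5 and no overlap of groups. For the interaction, level and overlap were replaced by the same sign without each library in turn. The 3 most abundant genes of each functional list were planned as well, but no step selected them. Other genes were named after their values were seen. Members and lists were chosen with earlier results of these data known.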

Additional observations from a re-analysis of the deposited data

Results flagged for a closer look

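The response to warmth at 1 h differed between ino80 and Col by the test of the genotype by temperature interaction for 17 chloroplast genes (limma, adjusted p below 0.05, n = 3 per group), in each case with a larger value in ino80. In photosystem I and its assembly the interaction was 2.99 for psaA, 1.41 for psaB, 1.14 for psaC, 1.30 for psaJ and 1.16 for ycf3. In photosystem II it was 2.24 for psbD, 1.69 for psbA, 1.33 for psbC and 1.07 for psbB. It was 1.52 for rbcL, 1.43 for petN, 1.14 for atpI and 0.96 for atpH. For the NDH genes ndhH and ndhI it was 1.64 and 1.33, and for the ribosomal genes rps15 and rps18 it was 2.0 and 1.26. Without 1 library in turn, 6 of the 17 lost the call at least once, which were psaJ (adjusted p up to 0.053), rps18 (0.065), psbB (0.068), rps15 (0.08), ndhH (0.1) and psaC (0.13). psaJ lost it without Col 21 °C replicate 3, and the others without 5 to 9 of the 12 libraries.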

How the results depend on the processing

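Counts of called chloroplast genes at 1 h moved by over 1.5 times under few settings. With chloroplast genes rescaled to each other they were 39 for ino80 at 27 °C, 10 for warmth in ino80 and 7 for the interaction, since this scaling removes their shared change. The interaction count was 11 with no filter on low TPM and 10 with robust empirical Bayes, and the cause was not tested. Leaving out 1 library gave 19 to 45 calls for warmth in ino80 at 1 h, 13 to 28 for warmth in Col at 1 h, and 9 to 19 for warmth in ino80 at 12 h.

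Single genes reversed only when chloroplast genes were rescaled to each other at 1 h, which happened 20 times. For ino80 at 27 °C the values were -1.12 for rpoB, -0.92 for atpB, -0.34 for ycf1, -0.33 for clpP, -0.13 for psbB, -0.06 for petA and -0.02 for rpoA. For ino80 at 21 °C they were -0.54 for psbD, -0.41 for rpoB, -0.38 for psbA, -0.26 for psbB, -0.23 for atpB and -0.11 for clpP. For warmth in ino80 they were -0.46 for atpB, -0.19 for clpP, -0.03 for psbB, -0.03 for rpoA and -0.02 for petA, for warmth in Col 0.21 for atpA, and for the interaction -0.71 for rpoB.

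The replicate number as a block gave 69 calls for ino80 at 27 °C, 41 for ino80 at 21 °C, 37 for warmth in ino80, 25 for warmth in Col and 23 for the interaction at 1 h, and 11, 10, 19, 12 and 0 at 12 h. Deviations of same-numbered libraries correlated at -0.05 to 0.12 at 1 h and -0.29 to 0.20 at 12 h. Such correlations cannot show whether same-numbered libraries were grown or handled together, and the labels do not say. Depth limits genes of about 100 bases, and TPM is understated where the gene length held introns.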
